A study of Homo sapiens with 8 samples.

Results

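The regions described here are the 13666 stretches of DNA that the authors called different for trimethylation of lysine 79 on histone H3 (H3K79me3) between MOLM-13 cells with shLAMP5-AS1 and MOLM-13 cells with shNC. They are every row of the H3K79me3 table, out of 22412 rows in the series. The other 8746 rows are the same comparison for the dimethylated form, H3K79me2. MOLM-13 is an established human line from an acute leukemia of the monocytic type, and it carries a fusion of the MLL gene, also named KMT2A. shLAMP5-AS1 is a short hairpin RNA against the long noncoding RNA LAMP5-AS1, whose gene lies antisense to LAMP5, and shNC is the control hairpin. Of the 8 libraries in the series, 4 belong to H3K79me3, with 1 ChIP and 1 input library of shLAMP5-AS1 cells and 1 ChIP and 1 input library of shNC cells. Other label fields disagree with the titles: the control's transfection field says control siRNA, the treatment field names knockdowns of other genes, and the growth field describes cells grown out of xenografts. Grouping here goes by the titles and by the cell type given, MOLM-13.

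Each condition therefore had 1 sample, no difference between the conditions has a replicate check, and no p-value is given. The table holds neither reads nor signal, so the depth of the libraries is unknown. Each region has a name that begins neg_peak or pos_peak and a signed score made by the authors. All scores had the sign that the name gives, with 0 exceptions. Neither the files nor the labels say which condition a negative sign favours, so nothing below states a gain or a loss in shLAMP5-AS1 cells. A region in the table marks a called difference and not the presence of the mark, and a gene without a region may still carry the mark. Intervals are 95% Wilson intervals unless named otherwise, which cover counting error only, and regions of the same gene are not independent of each other. Positions are those of the deposited table. Of 10874 H3K79me3 regions in introns of a gene that RefSeq knows, 99.97% were on that gene's chromosome but only 15.1% lay inside its GRCh38 bounds, so the positions are not on GRCh38. The other build named in the submitters' processing notes is hg19.

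Lysine 79 sits on the face of the nucleosome core, and DOT1L is the enzyme that methylates it. The mark covers the bodies of transcribed genes, and in its di- and trimethylated forms it is strongest in the stretch that follows the promoter. MLL fusion proteins in leukemia bring DOT1L to their target genes through DOT1L's partner proteins, and this is how the mark comes to spread far along genes such as MEIS1 and the HOXA cluster. Among all protein-coding genes 17.6% had a region. Of 17 myeloid and monocytic markers, 10 had a region, among them CD33, the transcription factor gene SPI1, the granule protease genes ELANE and PRTN3 and the receptor gene FLT3. The other 7 had none, and these include MPO, LYZ and CD14, which encode myeloperoxidase, lysozyme and a monocyte receptor. No region was found for any marker of T cells (0 of 6), B cells (0 of 5), erythroid cells (0 of 4), epithelium (0 of 4), fibroblasts (0 of 3), hepatocytes (0 of 2) or neurons (0 of 2). With so few markers per cell type, a count of 0 is close to what the share of all genes would give.

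Nearly all regions had the same sign. Region names began with neg_peak in 13329 of 13666 cases, a share of 97.5% (interval 97.3 to 97.8), and with pos_peak in 337. For H3K79me2, 55.3% of the names began with neg_peak. Regions were short, with a median width of 85 bp and a range of 63 to 774 bp. Of the neg_peak regions, 31.5% were 60 to 70 bp wide, and only 3.71% were wider than 200 bp. The median size of the score, as the authors' deposited table gives it, was 9.51 in the narrowest of these classes and 13.7 in the widest.

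The regions of both signs lay in different places relative to genes. Of the neg_peak regions, 87.3% were annotated to an intron, against 63.8% of the pos_peak regions. No gene was named for 8.55% of the neg_peak regions (8.09 to 9.04), against 29.4% of the pos_peak regions (24.8 to 34.5). The shore of a CpG island, the belt of DNA beside an island, held 19.1% of the neg_peak regions (18.5 to 19.8) and 5.64% of the pos_peak regions (3.64 to 8.64), and those intervals did not overlap. The islands themselves held 3.24% and 4.15% of the neg_peak and pos_peak regions. The promoter of a protein-coding gene was named for 776 neg_peak regions, or 5.82% (5.44 to 6.23), and for 16 pos_peak regions, or 4.75% (2.94 to 7.57), and those intervals overlapped. In the H3K79me2 table shores held 10.6% of the neg_peak and 13.9% of the pos_peak regions, so there the larger share belonged to the other sign.

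The sequences below are promoter windows of genes named in the results. No region was placed in them, since the positions of the regions are not on GRCh38. They are the 250 bases upstream of the transcription start in RefSeq on GRCh38.p14, read 5′ to 3′ along the gene, with each CpG in capitals. LAMP5 is the gene beside the targeted RNA and SENP6 has the run with the most regions. RPL13A is a ribosomal protein gene and VEGFB has the region with the largest score. The windows are chr20:9514340-9514589, chr6:75601630-75601879, chr19:49487358-49487607 and chr11:64234334-64234583, all on the plus strand.
LAMP5: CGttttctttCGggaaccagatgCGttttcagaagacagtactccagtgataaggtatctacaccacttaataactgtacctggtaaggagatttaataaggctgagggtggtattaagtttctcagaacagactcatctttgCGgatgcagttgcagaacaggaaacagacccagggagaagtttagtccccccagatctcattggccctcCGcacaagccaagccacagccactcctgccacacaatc
SENP6: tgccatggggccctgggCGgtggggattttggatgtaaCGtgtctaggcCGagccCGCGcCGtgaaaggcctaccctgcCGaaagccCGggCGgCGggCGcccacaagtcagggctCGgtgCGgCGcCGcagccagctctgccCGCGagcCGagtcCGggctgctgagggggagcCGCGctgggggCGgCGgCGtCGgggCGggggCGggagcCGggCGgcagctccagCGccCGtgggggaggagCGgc
RPL13A: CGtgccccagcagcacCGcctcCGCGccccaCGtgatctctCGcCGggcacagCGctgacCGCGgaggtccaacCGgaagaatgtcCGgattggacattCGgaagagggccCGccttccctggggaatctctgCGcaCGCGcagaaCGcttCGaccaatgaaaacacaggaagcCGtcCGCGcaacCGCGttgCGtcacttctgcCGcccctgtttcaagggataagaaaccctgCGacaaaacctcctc
VEGFB: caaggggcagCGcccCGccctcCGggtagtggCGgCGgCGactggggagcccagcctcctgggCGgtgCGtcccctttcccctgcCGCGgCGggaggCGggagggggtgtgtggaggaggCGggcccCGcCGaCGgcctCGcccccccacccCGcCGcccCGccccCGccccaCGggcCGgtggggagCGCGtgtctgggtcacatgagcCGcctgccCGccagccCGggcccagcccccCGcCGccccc
The LAMP5 window has 5 CpG and 47.6% G and C, while the SENP6, RPL13A and VEGFB windows have 32, 27 and 30 CpG and 77.2%, 63.2% and 82.8% G and C. The last 3 are thus CpG-rich, and the LAMP5 window is not.

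Promoters with a neg_peak region were richer in CpG than the average promoter. RefSeq promoter windows of 300 bases, 50 of them after the start, were at hand for 15843 protein-coding genes, which is 79.1% of all. Of 650 protein-coding genes with a neg_peak region at the promoter, 549 had such a window. Their median was 26 CpG, against 22 over all windows, and 88.5% of them had at least 10 CpG, against 73.0% of all. The letters GGGCGG, searched on both strands, were present in 66.7% of them and in 58.5% of all windows, and CCAAT, also on both strands, in 34.1% and 36.4%. Only 10 genes with a pos_peak region at the promoter had a window, with a median of 26 CpG. Genes with an H3K79me2 neg_peak or pos_peak region at the promoter also had a median of 26 CpG, so the CpG content was not particular to H3K79me3 or to a sign.

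Chromosome 13 had the most regions for its number of genes. It held 606 regions and 338 protein-coding genes, which is 179 regions per 100 genes, against a median of 72.4 over the autosomes. Chromosome 18 followed with 121, chromosome 8 with 101, chromosome 3 with 96.1 and chromosome 6 with 95.6 regions per 100 protein-coding genes. The lowest autosomes were chromosome 11 with 41.6, chromosome 17 with 43.7, chromosome 16 with 45.9 and chromosome 19 with 46.3. The highest value was 4.31 times the lowest (3.84 to 4.84, a 95% Poisson interval on the log ratio, counting error only). The X chromosome had 24.5 and the Y chromosome 23.8 regions per 100 protein-coding genes, which rests on 15 regions. Copy number along the genome of this line was not analysed here, and its part in these values was not tested.

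A few genes carried much of these chromosome totals. DACH1, which encodes a transcriptional cofactor of the dachshund family, held 147 of the 606 regions on chromosome 13, or 24.3%. Without DACH1, chromosome 13 still had the highest value, at 135.8 regions per 100 protein-coding genes, and the ratio of highest to lowest was 3.27. ZNF521, which encodes a zinc finger cofactor of blood progenitors, held 108 of the 327 regions on chromosome 18, or 33.0%, and without it the chromosome had 81.1 per 100 genes. PBX3, a homeobox gene whose product pairs with HOX proteins, held 104 of the 553 regions on chromosome 9, or 18.8%. The leading genes of the remaining autosomes held 3.13% (ACTN4, chromosome 19) to 13.1% (NCAM2, chromosome 21) of their chromosome's regions. Counted as genes instead of regions, the chromosomes differed less, with 25.7% of the protein-coding genes of chromosome 13 and 14.1% of those of chromosome 11 having a region. Per Mb between the outermost regions, chromosome 19 was highest with 11.5 regions, against 6.40 on chromosome 13. The order of the chromosomes therefore depends on the denominator.

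The small number of pos_peak regions was spread over all chromosomes, and the share of pos_peak names ran from 0.765% on chromosome 16 (0.261 to 2.23) to 4.30% on chromosome 22 (2.42 to 7.53) among the autosomes. Chromosome 5 had the most pos_peak regions, 31 of 737. In the H3K79me2 table the share of pos_peak names ran from 34.4% on chromosome 6 to 61.4% on chromosome 18, and chromosome 13 was again highest in regions per 100 protein-coding genes, with 86.4.

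**Figure D1:**
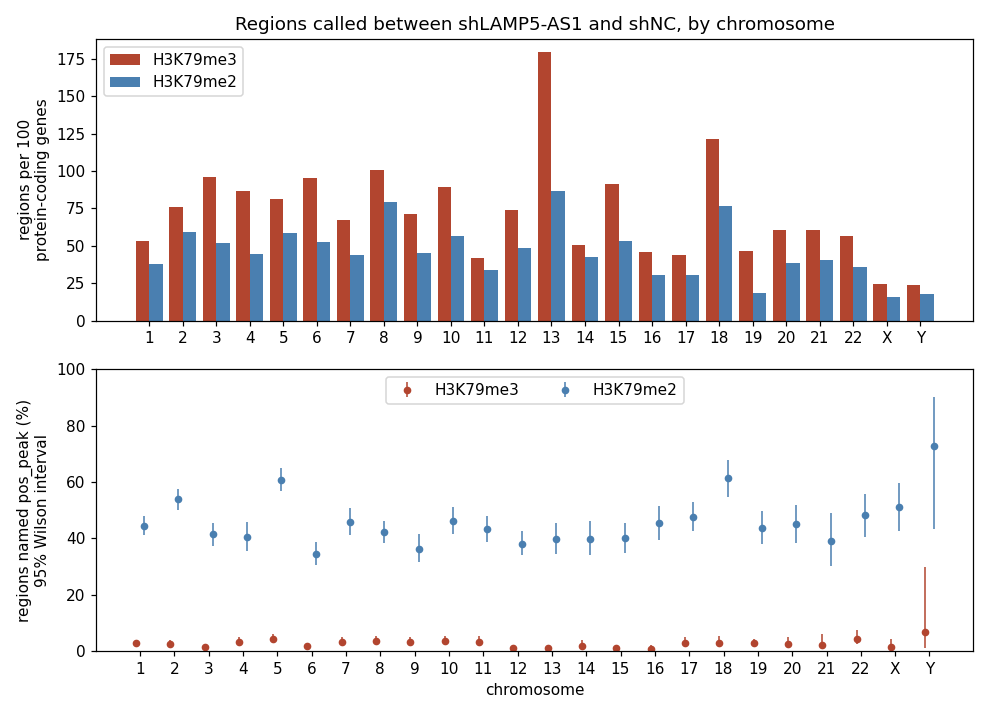
The upper panel shows regions per 100 protein-coding genes for each chromosome, with H3K79me3 in red and H3K79me2 in blue, and the lower panel the percentage of regions named pos_peak with 95% Wilson intervals. Chromosome 13 is highest for H3K79me3 at 179, and the H3K79me3 share of pos_peak names stays at or under 4.30% on every autosome.

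The neg_peak regions lay close together and the pos_peak regions far apart. The median distance from a neg_peak region to the nearest other neg_peak region was 1216 bp, and 74.1% had one within 5 kb. For pos_peak regions the median distance to the nearest other pos_peak region was 2600150 bp, and 14 of 337, or 4.15%, had one within 5 kb. A neg_peak region lay within 5 kb of 82 pos_peak regions, or 24.3%. No other region of either sign lay within 50 kb of 162 pos_peak regions, or 48.1%, against 12.7% of the neg_peak regions. The number of regions per sign was not matched, and its part in these distances was not tested. In the H3K79me2 table, where the signs were more even, the median distances to the nearest region of the same sign were 10216 bp for neg_peak and 14601 bp for pos_peak regions.

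Runs of regions along genes took up a large share of the table. A run was counted as a chain of at least 5 regions of the same sign in which each starts at most 5 kb after the end of the one before. There were 578 runs, 577 of neg_peak and 1 of pos_peak regions, and they held 5507 regions, or 40.3% of the table. The H3K79me2 table had 71 runs, 42 of neg_peak and 29 of pos_peak regions, with 7.01% of its regions. A run needs regions of the same sign, and the tables differ in how many they hold. H3K79me3 had 13329 neg_peak regions, while H3K79me2 had 4835 neg_peak and 3911 pos_peak regions. The part of these numbers in the counts of runs was not tested. An H3K79me3 run had a median of 7 regions over 9.57 kb, which is 8.01 regions per 10 kb. The regions covered a median of 8.25% of the run they stood in, and the median gap between neighbours was 993 bp. The runs were thus rows of narrow regions with DNA between them that was not called.

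Most runs stayed inside the bounds of 1 gene. In 446 of the 578 runs only 1 gene was named, in 416 of these every region lay in that gene, and 110 runs named several genes, which either overlap or lie next to each other. No gene was named for 22 runs. A region at a promoter of any gene was part of 164 runs, or 28.4%, and a region in a CpG island or shore was part of 334 runs, or 57.8%. Inside runs 12.8% of the regions lay in shores, against 22.9% outside runs, and 5.83% lay at a promoter, against 9.82% outside. The median size of the score in the authors' deposited table was 10.9 inside runs and 9.51 outside, and the median width was 91 bp inside and 81 bp outside. A region of the other sign lay inside 9 runs.

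The runs with the most regions stood mainly in 1 gene each, several of them known targets of MLL fusion proteins. SENP6, which encodes a protease that removes SUMO from proteins, had the run with the most regions, 76 over 77.2 kb (chromosome 6, 76308643 to 76385841), 75 of them annotated to the gene. DACH1 had a run of 71 regions over 75.4 kb and another of 39 regions over 61.5 kb. In the larger of these 63 regions were annotated to DACH1 and 8 to no gene. RREB1, a zinc finger transcription factor gene, had 63 regions over 67.8 kb, all inside the gene. MBNL1, which encodes a splicing regulator, had a run of 58 regions over 62.9 kb. SATB1, which encodes an organiser of chromatin in lymphoid cells, had a run of 54 over 65.8 kb, 45 of them annotated to the gene. PARP8, from the family of ADP-ribosyltransferases, had the run with the longest span, 80.3 kb with 50 regions. PBX3 followed with 43 regions over 66.9 kb, and ZNF521 had a pair of runs with 39 regions each.

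**Figure D2:**
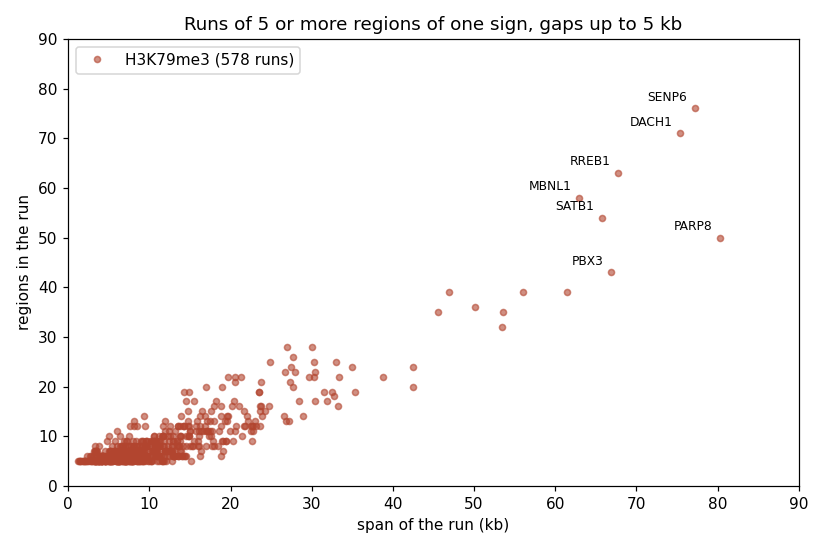
Each point is a run of at least 5 regions of the same sign, with its span in kb on the x axis and its number of regions on the y axis, for the 578 H3K79me3 runs. They reach 76 regions (SENP6) and 80.3 kb (PARP8), and most lie near the median of 7 regions over 9.57 kb.

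Some genes were broken into several runs. DACH1, MBNL1, PBX3, ZNF521 and JMJD1C, a demethylase family gene, each led 5 runs. FNDC3B, which encodes a fibronectin type III domain protein, and JARID2, which encodes a cofactor of Polycomb repressive complex 2, each led 4. All of these runs were of neg_peak regions. The 5 runs led by DACH1 held 143 regions, 135 of them annotated to the gene. Those led by MBNL1 held 115, 98 of them annotated to the gene. Those led by ZNF521 held 101, all annotated to the gene. Runs of 20 or more regions numbered 40, against 3 in the H3K79me2 table, where fewer regions were split over both signs. Not all of the 40 lay in a gene. Those without a named gene had 25 and 23 regions on chromosome 15, 25 on chromosome 3 and 22 on chromosome 4. Chromosome 15 held further runs of 22 and 20 regions. How reads that match several places were treated is not given, and their part in these runs was not tested. By chromosome, chromosome 13 had 28 runs, which is 8.28 per 100 protein-coding genes, followed by chromosome 8 with 4.90, while chromosome 14 had 1.49 and the X chromosome 0.472.

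**Figure D3:**
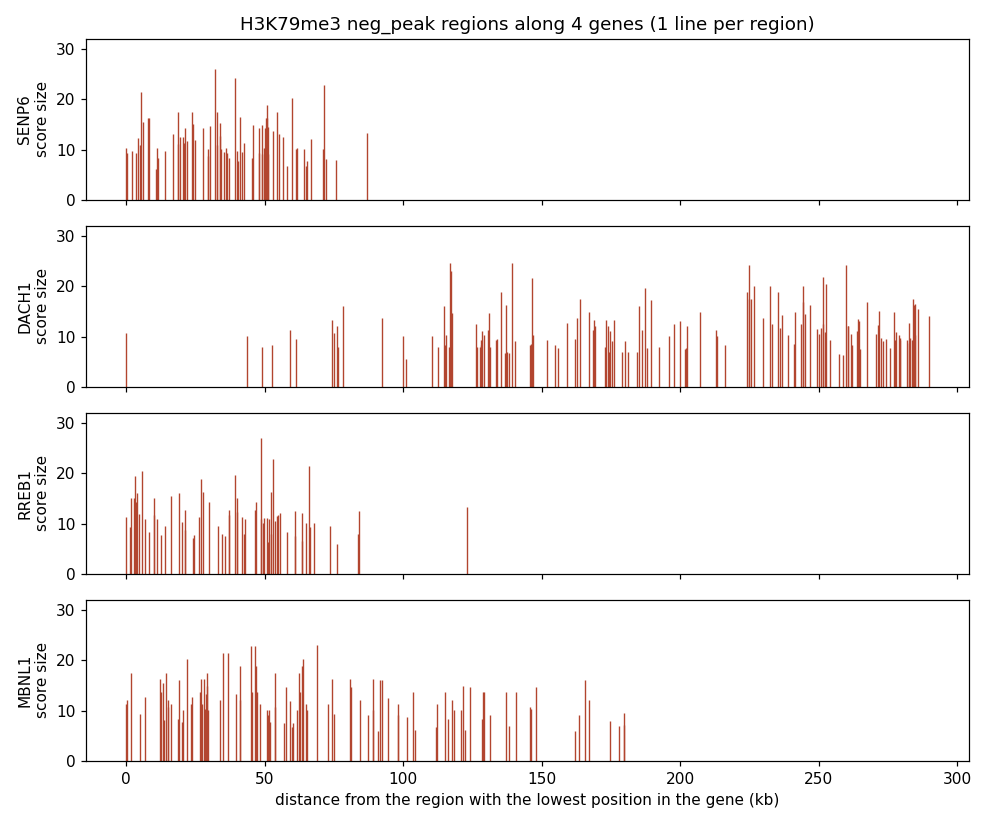
Each vertical line is an H3K79me3 neg_peak region in SENP6, DACH1, RREB1 or MBNL1, placed by its distance in kb from the region with the lowest position in the gene, and its height is the size of the authors' score. SENP6 is filled along 87.0 kb with 76 regions, while the 147 regions of DACH1 are spread over 290 kb in several blocks.

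At the gene level, 4045 gene symbols had at least 1 region at the promoter or in the gene body, and 3982 of them, or 98.4%, matched a RefSeq gene. Of the matched symbols 3535 were protein-coding, 212 long noncoding RNAs, 93 small nucleolar RNAs and 75 microRNAs. Among the 20037 protein-coding genes of RefSeq, 17.6% had at least 1 region, 3.38% had at least 5 and 1.02% had at least 1 pos_peak region. The counts were uneven, since 1886 genes, or 46.6%, had a single region, 251 genes had at least 10 and 24 had at least 40. The 10 genes with the most regions held 857 of them, or 6.27% of the table, and the leading 100 genes held 3124, or 22.9%. The part of gene length in these counts was not tested.

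Of the 15 genes with the most regions, all but PBX3 and JMJD1C had neg_peak regions only. So did 3814 of all 4045 gene symbols with a region, so this is not particular to the 15. DACH1 had 147 regions over 290 kb, ZNF521 had 108 over 227 kb and MBNL1 had 106 over 180 kb. PBX3 had 103 neg_peak regions and 1 pos_peak region over 206 kb. SENP6 had 76 regions over 87.0 kb and was the most densely covered of the 15, with 8.73 regions per 10 kb between its outermost regions. RREB1 had 68 regions, FNDC3B had 62 and JARID2 had 61. JMJD1C had 62 neg_peak regions and 1 pos_peak region, and CDK6, the cyclin-dependent kinase that drives entry into the cell cycle, had 62. MEIS1, the homeobox partner of HOXA9, had 55 regions. PARP8 had 54, CCDC26, a long noncoding RNA gene, had 53, ELF1, an ETS transcription factor gene, had 53, and CNOT6L, which encodes a deadenylase of messenger RNA, had 50.

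The same 15 genes had fewer regions for H3K79me2 than for H3K79me3, some with a prevailing sign and some with both. They were picked for their H3K79me3 regions, and H3K79me2 had 8746 regions in all against 13666. The lower counts therefore follow largely from that choice and are not a difference between the marks. DACH1 had 29 neg_peak regions and 1 pos_peak region for H3K79me2, ZNF521 had 8 of each sign, and MBNL1 had 7 neg_peak and 4 pos_peak regions. PARP8 had 2 neg_peak and 4 pos_peak regions, and ELF1 had 2 of each. MEIS1 with 8 and RREB1 with 6 had neg_peak regions only. CCDC26 had 20 neg_peak regions and 1 pos_peak region, and FNDC3B had 21 neg_peak and 2 pos_peak regions.

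Where a gene had a region at its promoter and others in its body, the number of body regions fell with distance from the promoter. Strand was taken from RefSeq, and distance was measured from the region at the promoter that lies farthest 5′. There were 296 such genes with 1805 body regions, of which 94.9% lay downstream, as the definition of a gene body largely fixes, and 93 upstream. The median distance of the downstream regions was 16.1 kb, 75% lay within 52.0 kb and 90% within 103 kb. Genes with many regions weigh most in these pooled values. Taken per gene, the farthest region lay at a median of 7.17 kb. The opening 5 kb held 24.7% of them, the next 5 kb 14.4%, the next 9.40% and the next 5.72%. For H3K79me2 there were 139 such genes with 420 body regions, 81.4% of them downstream, at a median of 18.3 kb. Per gene, the farthest H3K79me2 region lay at a median of 11.5 kb. Genes end at different distances, and the part of gene length in the decline was not tested.

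Single genes differed widely in this reach. In MBNL1 104 body regions reached 180 kb from the promoter region with a median of 62.5 kb, and in PBX3 103 reached 206 kb with a median of 95.9 kb. CDK6 with 60 body regions reached 218 kb and JARID2 with 60 reached 236 kb. In SENP6 74 body regions reached 86.9 kb at a median of 38.3 kb. In ACTN4, the leading gene of chromosome 19, which encodes an actin crosslinker, 20 body regions lay at a median of 10.6 kb and reached 31.4 kb.

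**Figure D4:**
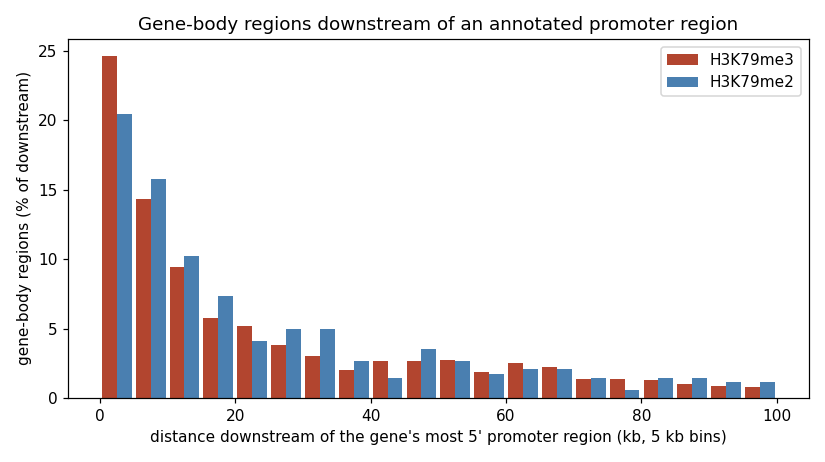
Bars give the percentage of downstream gene-body regions in 5 kb bins of distance from the promoter region that lies farthest 5′, up to 100 kb, with H3K79me3 in red (296 genes) and H3K79me2 in blue (139 genes). For H3K79me3 the share is 24.7% in the bin from 0 to 5 kb and falls to 5.72% in the bin from 15 to 20 kb.

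The targeted locus held a run of its own. LAMP5, which encodes a membrane protein of the lysosome family, and LAMP5-AS1 lie on opposite strands and overlap in the annotation, so shared regions cannot be given to either gene alone. The run had 13 neg_peak regions over 17.0 kb (chromosome 20, 9489427 to 9506462). Introns of LAMP5-AS1 held 8 of them and LAMP5 held 9, with 4 in both. Upstream of LAMP5, 4 regions lay only in LAMP5-AS1 and were scored at -10.2, -13.7, -20.1 and -12.2 in the authors' deposited table. The 4 shared regions lay at the LAMP5 promoter and in a CpG island shore, and the authors' deposited table scores them at -9.09, -11.8, -7.29 and -14.6. The 5 regions in LAMP5 introns stood at -10.2, -9.32, -8.41, -11.3 and -10.2 in the authors' deposited table and reached 13.0 kb beyond the promoter region that lies farthest 5′. The median score size in the authors' deposited table was 10.22 in the run and 10.19 over all neg_peak regions. There were 0 pos_peak regions in either gene, as in 3814 of all 4045 gene symbols with a region. For H3K79me2 LAMP5 had 1 neg_peak and 2 pos_peak regions and LAMP5-AS1 had none. RNA was not measured in the files used here, so these values do not check the knockdown.

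The pos_peak regions were mostly solitary. They fell in 295 windows of 1 Mb, 268 of which held 1, and only 7 windows held 3 or more. The only run of pos_peak regions lay on chromosome 8 from 43092830 to 43096957, with 6 regions in 4.13 kb and no gene named. Their scores in the authors' deposited table were 84.9, 50.02, 12.2, 23.5, 29.2 and 13.1 from left to right, so this run holds 3 of the 5 largest scores among all pos_peak regions. Another group of 5 pos_peak regions without a gene lay on chromosome 10 from 42385151 to 42599826, scored at 12.2 to 16.4 in the authors' deposited table. Neither window held a neg_peak region or an H3K79me2 region. How reads that match several places in the genome were treated is not given, and the part of such reads in these groups was not tested.

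Among protein-coding genes 1.02% had a pos_peak region, against 9.91% for H3K79me2. Of all gene symbols 231 had one, 143 of these also had neg_peak regions, and only 9 had 2 or more pos_peak regions. FAF1, which encodes a Fas-associated factor and leads chromosome 1, had 4 pos_peak regions among 36 neg_peak regions. PDE7A, a phosphodiesterase of cyclic AMP, had 3 pos_peak and 7 neg_peak regions and LRRC8C, a subunit of volume-regulated anion channels, 3 of each sign. For H3K79me2 PDE7A had 21 regions and LRRC8C had 22, all named pos_peak. QKI, an RNA-binding protein gene, had 2 pos_peak and 14 neg_peak regions, and the adaptor gene SH3KBP1 had 2 and 8. KIAA0930 likewise had 2 and 8. CTNNA3, an alpha-catenin gene, had 2 pos_peak regions and 1 neg_peak region and C1orf43 had 2 pos_peak regions only, and neither had an H3K79me2 region. VEGFB, which encodes a vascular growth factor, had 1 region, in a CpG island at its promoter, which the authors' deposited table scores at 99.5.

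Signs were also compared in genes with regions of both marks. Of the genes with H3K79me3 regions, 2080 also had H3K79me2 regions, which is 51.4% of the H3K79me3 genes and 56.8% of the 3665 H3K79me2 genes. Among all protein-coding genes, 17.6% had an H3K79me3 region and 16.8% an H3K79me2 region. Of the shared genes with H3K79me3 neg_peak regions only, 767, or 39.5%, had H3K79me2 neg_peak regions only, 688 had both signs and 486, or 25.04%, had pos_peak regions only. These genes make up most of the shared genes, so their shares lie close to those over all shared genes. Of the 23 shared genes with H3K79me3 pos_peak regions only, 15, or 65.2%, had H3K79me2 pos_peak regions only. Overlap was also counted between the regions themselves, which are narrow in both tables. Of the H3K79me3 regions, 159, or 1.16% (0.997 to 1.36), overlapped an H3K79me2 region by at least 1 bp, which is 1.81% of the H3K79me2 regions, and 11.4% of the H3K79me3 regions had one within 1 kb. Over all regions, 97.5% of the H3K79me3 names and 55.3% of the H3K79me2 names began with neg_peak. Among the overlapping pairs both were neg_peak in 97 and both pos_peak in 6, 2 of them in PDE7A. In 52 pairs the H3K79me3 region was neg_peak and the H3K79me2 region pos_peak, and in 4 the reverse held. VEGFB was one of those 4, where the authors' deposited tables give 99.5 for H3K79me3 and -15.3 for H3K79me2.

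Gene families were compared by the share of members with at least 1 region, to be read against 17.6% of all protein-coding genes for H3K79me3 and 16.8% for H3K79me2. Counts of neg_peak names in the families are to be read against 97.5% of all H3K79me3 regions. The 37 families and lists overlap in part, and CDK6 and ZNF521 for example stand in more than 1. The highest share of the 37 was that of the HNRNP and SRSF genes, which encode RNA-binding regulators of splicing, with regions in 28 of 38 members, or 73.7% (57.99 to 85.03), against 42.1% for H3K79me2. All 131 of their regions were neg_peak, 63.4% of them lay in runs, and HNRNPC led with 20 regions, followed by HNRNPA2B1 with 11, HNRNPF with 10 and HNRNPU with 10. Translation initiation factors had regions in 28 of 56 members, or 50%, led by the EIF3 subunit genes EIF3A with 18 and EIF3E with 12 and by the cap-binding factor gene EIF4E with 12. DEAD and DEAH box RNA helicases had regions in 24 of 54, or 44.4%, led by the splicing helicase gene DHX15 with 12 neg_peak regions and 1 pos_peak region.

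Ribosomal protein genes, which are short and highly expressed, were hit often but thinly. Regions were found in 58 of 85 members, or 68.2% (57.7 to 77.2), against 18 of 85, or 21.2% (13.8 to 31.0), for H3K79me2. The same 85 genes were counted for both marks, so those intervals do not test a difference between the marks. With only regions annotated to 1 gene counted, the H3K79me3 share was 41.2%. Of their 125 regions 124 were neg_peak, and the exception was at RPL10L, which the authors' deposited table scores at 5.09. Only RPL32, with 6 regions, had at least 5, which is 1.18% of the members, against 3.38% of all protein-coding genes. Only 4.8% of the ribosomal protein regions lay in runs, against 40.7% of the regions in all protein-coding genes. A CpG island or shore held 77.6% of them, against 23.1%, and 12% lay at the family's own promoters, against 6.61% of coding regions at a coding promoter. A microRNA or small nucleolar RNA was also named for 32% of them, against 1.47%. Many ribosomal protein genes host small nucleolar RNAs in their introns, and a region there is then also annotated to the promoter of the small RNA. RPS9, RPS24 and RPL13A each had 4 regions, all neg_peak, and none of these members, nor RPL32, had an H3K79me2 region. Ribosomal protein and HNRNP genes have near-identical processed copies elsewhere in the genome, and how reads with several matches were treated is not given in the sources used here, so single regions in these genes are uncertain.

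Genes of the transcription and chromatin machinery also stood above the share of all genes. The list of chromodomain and SWI/SNF remodellers had regions in 16 of 31 members, or 51.6%. It also counts ARID3A, an ARID-domain transcription factor gene and not a remodeller, which had the most regions, 14. ARID1A and ARID1B, which encode DNA-binding subunits of the BAF complex, followed with 10 each. DOT1L and its elongation partners had regions in 17 of 33, or 51.5%, with 82 neg_peak regions and 1 pos_peak region. Within this list AFF1, a scaffold of the super elongation complex, had 27 regions, MLLT10, a DOT1L cofactor, had 17, DOT1L had 14 and LEO1, a subunit of the PAF complex, had 4. Lysine methyltransferases and demethylases had regions in 28 of 62, or 45.2%, led by JMJD1C, and after it by KMT2E with 12. TAF genes had them in 10 of 24, or 41.7%. Mediator had regions in 12 of 30 members, or 40%, and 46 of its 69 regions lay in MED13L, a paralogue of the kinase module subunit gene MED13, which leads chromosome 12. Writers and erasers of H2B ubiquitin, a mark that stimulates DOT1L, had them in 6 of 15, or 40%, led by the deubiquitinase gene USP22 and by WAC with 9 each. RNA polymerase subunit genes had regions in 9 of 33, or 27.3% (15.1 to 44.2), an interval that includes the share of all genes.

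The MLL fusion target list combined many members with many regions. It was chosen from published knowledge of these leukemias, but with earlier results of these data known. Its shares are therefore a description and not independent support. Regions were found in 32 of 44 members, or 72.7% (58.2 to 83.7), against 31 of 44 for H3K79me2. At least 5 regions were found in 23 of 44, or 52.3%, against 3.38% of all protein-coding genes. For H3K79me2 the list had 17 of 44, or 38.6%, against 1.96% of all protein-coding genes. The list held 1086 neg_peak and 11 pos_peak regions, and 81.8% of its regions lay in runs, against 40.7% for all protein-coding genes. Its leading members were DACH1, ZNF521, MBNL1 and PBX3.

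The HOX genes had few regions, most of them at promoters. Of 39 HOX genes 6 had a region, 15.4% (7.25 to 29.7), an interval that includes the 17.6% of all protein-coding genes. All 6 were in the HOXA cluster. HOXA7 had 3 regions, HOXA9 and HOXA5 had 2 each, and HOXA4, HOXA6 and HOXA10 had 1 each. All were neg_peak, as were 97.5% of all H3K79me3 regions. All 10 regions lay in a CpG island or its shore and 7 lay at the promoter of a HOX gene. HOXA genes are short, and the cluster's genes overlap one another and antisense RNAs in the annotation.

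Families of protein turnover and metabolism also stood above 17.6%. UBE2 genes, the ubiquitin-conjugating enzymes, had regions in 19 of 36, or 52.8%, led by UBE2W with 29 and UBE2N with 19, and for H3K79me2 in 58.3%. Proteasome subunits had regions in 18 of 48, or 37.5% (25.2 to 51.6), against 14.6% for H3K79me2. No member had more than 5 H3K79me3 regions, while PSMB7 had 6 H3K79me2 regions. Nuclear genes of the respiratory chain had them in 38 of 99, or 38.4%, led by NDUFV2 with 13 and NDUFB9 with 12, both subunits of complex I, against 24.2% for H3K79me2. Ubiquitin-specific proteases had them in 23 of 77, or 29.9%, led by USP32 with 15. Cyclins and CDKs had them in 17 of 51, or 33.3%, and 62 of their 102 regions lay in CDK6. The housekeeping list had regions in 17 of 25 members, or 68.0%, led by YWHAZ, which encodes a 14-3-3 protein, with 8 and by the nucleolar protein gene NPM1 with 7.

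Signalling and myeloid genes varied in their share. DOCK genes, which encode exchange factors of the GTPases Rac and Cdc42, had regions in 6 of 11 members, or 54.5% (28.0 to 78.7), led by DOCK8 with 20 neg_peak regions and 1 pos_peak region. RAB GTPases had them in 18 of 74, or 24.3% (16.0 to 35.2), led by RAB1A and RAB2A with 15 each. MAP kinase cascade genes had them in 9 of 43, or 20.9%, with 26 of the 59 regions in MAPK14. Phosphodiesterases had them in 5 of 24, or 20.8%. Myeloid differentiation genes had regions in 12 of 31, or 38.7% (23.7 to 56.2), with 30 neg_peak regions and 2 pos_peak regions, in FLT3 and LYN.

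Other families of transcription factors and cell-type genes were near or below the share of all genes. ZNF genes, the largest family of zinc finger factors, had regions in 92 of 509 members, or 18.1% (14.97 to 21.65), against 13.2% for H3K79me2, led by ZNF521 with 108 and ZNF516 with 40. On chromosome 19, where these genes stand in clusters, 39 of 246 had a region, with 89 neg_peak and 6 pos_peak regions counted per gene. On the other chromosomes 53 of 263 had a region, with 287 neg_peak regions and 1 pos_peak region. ZBTB genes had regions in 8 of 41, FOX genes in 9 of 46 with 33 of 66 regions in FOXP1, TRIM genes in 13 of 75 and kinesins in 8 of 42. Solute carriers had regions in 49 of 383, or 12.8% (9.81 to 16.5), led by SLC22A15 with 19. Core histone genes had them in 5 of 85, or 5.88%, led by the histone variant gene H2AZ2 with 6. Protocadherins had 10 of 66 members with a region, but only 3 regions lay behind this count, since 1 region named 8 genes of the PCDHG cluster, which share their span. Keratins had 1 of 55. No region was found at any of 392 olfactory receptor genes, 19 SOX genes or 26 markers of other lineages. With 3 counts as the limit for a count of 0, this allows shares of up to 0.765%, 15.8% and 11.5%. The upper Wilson limits are 0.97%, 16.8% and 12.9%.

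**Figure D5:**
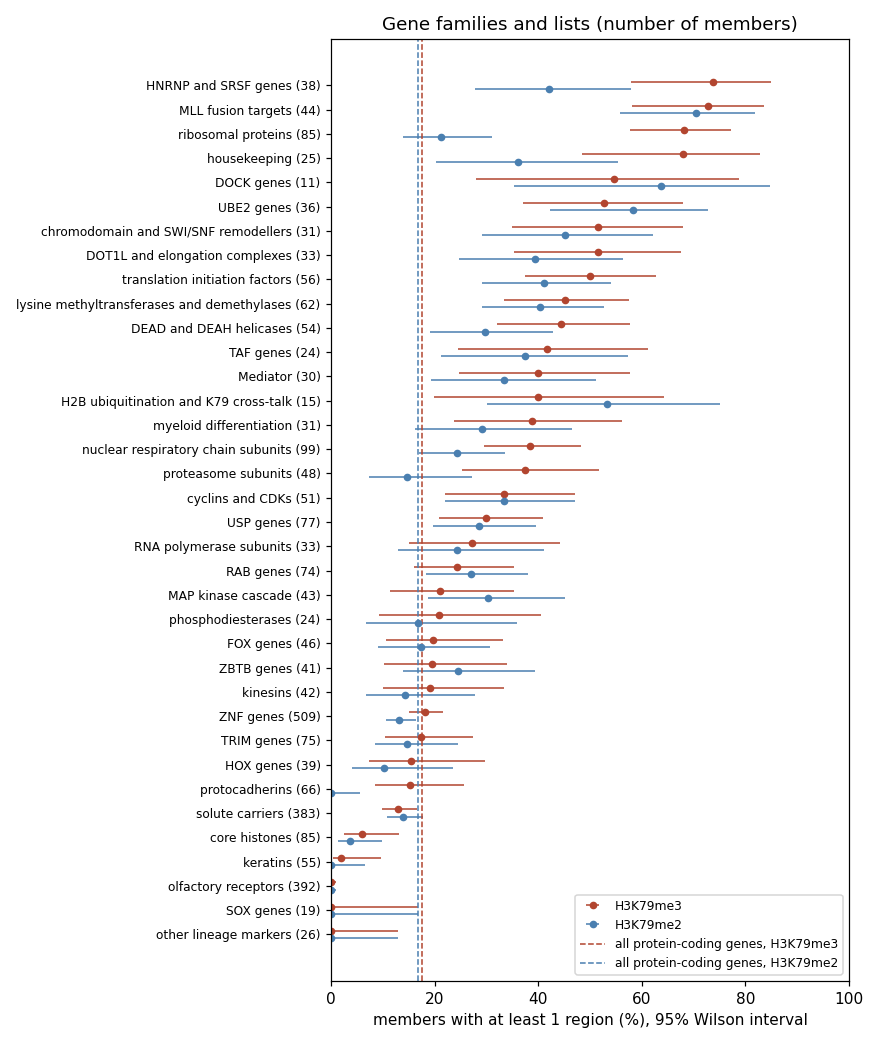
Points give the percentage of members with at least 1 region for each family or list reported here, with the number of members in brackets and 95% Wilson intervals, H3K79me3 in red and H3K79me2 in blue. The dashed lines mark all protein-coding genes at 17.6% for H3K79me3 and 16.8% for H3K79me2, and ribosomal proteins stand at 68.2% for H3K79me3 and 21.2% for H3K79me2.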

How the data were processed

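The score of each region was made by the authors and stands in their deposited table without a unit, per the file headers, together with the region's position, its name and its annotation to promoters, 2 kb upstream stretches, exons, introns, UTRs and CpG islands with shores. Per the submitters' processing notes the tools included Bowtie2, MACS2 2.1.1 and bedtools and the builds GRCh38, hg38 and hg19, with no role or order given. Which step made the tables is not given in the sources used here.

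Here regions were counted by name (pandas 2.3.3 and numpy 2.4.6 under Python 3.11.15, intervals with scipy 1.17.1, plots with matplotlib 3.10.9). A region counted for every gene that its promoter, gene body or UTR columns name. Gene types, strand and chromosome gene numbers came from RefSeq on GRCh38.p14. The counting of runs was tested on simulated data. No test was made, because each condition had 1 sample. Shares carry 95% Wilson intervals, and the limit for a count of 0 is 3 counts. The set of regions, the gene lists and the families were chosen with earlier results of these data known. Named were LAMP5 and LAMP5-AS1, the 15 genes with the most regions, genes of the 10 runs with the most regions and the 5 longest, the 10 genes with the most pos_peak regions, genes with at least 2 pos_peak and 0 neg_peak regions, up to 4 members per family, and the leading gene of each chromosome. A gene and a family that these rules name are not reported here. Alternatives are given in the closing section.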

Additional observations from a re-analysis of the deposited data

How the results depend on the processing

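The share of neg_peak names was 98.0% with score sizes of at least 10, 94.6% with regions of the same sign within 5 kb merged and 98.1% with only regions in a promoter or gene body, against 97.5% in all regions. The ratio of the highest to the lowest autosome, 4.31, was 5.44 with score sizes of at least 10, 2.51 with merged regions, when chromosome 19 was lowest, and 1.82 with genes counted. It was 3.27 without DACH1, an alternative chosen after seeing the data. Chromosome 13 was highest under each of these. The 578 runs became 375 with gaps of at most 2 kb, 1319 with at least 3 regions and 278 with score sizes of at least 10, and 656 with gaps of at most 10 kb. Protein-coding genes with a region, 17.6%, were 16.6% with gene body columns only, 14.98% with regions annotated to 1 gene only and 11.9% with score sizes of at least 10. The overlap with H3K79me2, 1.16%, was 0.388% at a reciprocal overlap of 50%, 11.4% within 1 kb and 0.634% with score sizes of at least 10. Of 40 named genes, 21 moved with score sizes of at least 10 and 2 with regions of 1 gene only, and of 37 families 11 and 2 moved, and 1 with gene body columns only. Family shares that left their interval and changed by more than 1.5 times were 41.2% for ribosomal proteins and 3.03% for protocadherins with regions of 1 gene only, 0% for keratins with gene body columns only and, with score sizes of at least 10, 32.3% for chromodomain and SWI/SNF remodellers, 20.8% for TAF genes, 22.9% for proteasome subunits, 19.5% for USP genes, 7.14% for kinesins, 8.36% for solute carriers, 24.2% for nuclear respiratory chain subunits and 3.03% for protocadherins, while the share of all genes then was 11.9%. HOX genes fell to 7.69% with gene body columns only or regions of 1 gene only, inside their interval. No paired analysis was possible because each group had 1 sample and no test was made. Depth is unknown, so the share of differences missed for lack of reads is unknown.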
